A study of Homo sapiens and Mus musculus with 12 samples.

Results

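RNA-seq counts of 5 genes of the transforming growth factor beta (TGF-beta) pathway were followed in natural killer (NK) cells lacking the histone methyltransferase EHMT2 (G9a) and in NK cells treated with an inhibitor of that enzyme. The genes were the ligand Tgfb1, the receptors Tgfbr1 and Tgfbr2, and the intracellular mediators Smad3 and Smad7. They were taken by symbol from the mouse table (22021 genes) and, as TGFB1, TGFBR1, TGFBR2, SMAD3 and SMAD7, from the human table (18304 genes), so that 10 of 40325 listed genes are described. All 10 were found and all 10 passed the filter on low counts.

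TGF-beta is made in an inactive, latent form, and once released it binds the type II receptor (TGFBR2), which recruits and phosphorylates the type I receptor (TGFBR1). The type I receptor then phosphorylates SMAD2 and SMAD3, which enter the nucleus with SMAD4 and change transcription, while SMAD7 is induced by the same signal and blocks the receptor. In NK cells the pathway is known as a brake on cytotoxicity and cytokine production and as an inducer of tissue-resident features.

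The mouse libraries came from splenic NK cells of wild-type (WT) and knockout (KO) mice, with 3 libraries of each. Both Ehmt2 alleles of the WT mice carry loxP sites (Ehmt2 flox/flox). KO mice carry the same floxed alleles and in addition the recombinase iCre under the control of Ncr1, which encodes the NK receptor NKp46. The mice were on a C57BL/6J background and between 8 and 12 weeks old, and the deletion is limited to cells that have switched on Ncr1. One label of the KO libraries gives the genotype as Ezh2-KO, whereas their titles and the study name EHMT2. The human libraries came from NK92MI, an NK lymphoma line that makes its own IL-2, kept with the EHMT2 inhibitor BIX-01294 (BIX, 3 libraries) or with the solvent DMSO (3 libraries). For other assays of NK92MI the study's supplement gives 0.25 micromolar BIX-01294 for 5 days, and the labels of the sequenced libraries give no dose or time. No source used here says that the 3 libraries of an NK92MI group came from separate cultures, and their p-values then measure the spread between these libraries only. Nor is it stated that the 3 libraries of a mouse group came from separate animals, so the same limit applies to them.

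Levels are given in CPM, the count of a gene relative to its library total after TMM scaling, and SE is the standard error of a log2 fold change. Tests of differences used the quasi-likelihood method of edgeR over the whole table, with Benjamini-Hochberg adjustment over all genes tested and a threshold of 0.05. Library totals lay between 25891680 (WT replicate 2) and 37438868 counts in mouse and between 16579469 and 17165446 counts in NK92MI. RNA of the targeted gene fell in both experiments. By Western blot, the study reports that Ehmt2 was fully deleted in KO splenic NK cells. Which exons or cells the Ehmt2 reads of the KO libraries came from was not tested. Ehmt2 reached 150 ± 18.1 CPM in the KO libraries, against 282 ± 5.94 CPM in the WT libraries (SD, n = 3 each; log2 fold change −0.91, adjusted p = 0.0162, edgeR), and EHMT2 reached 38.5 ± 2.39 CPM (SD, n = 3) with BIX and 57.7 ± 3.66 CPM (SD, n = 3) with DMSO (log2 fold change −0.58, adjusted p = 1.01e-04, edgeR). The mouse libraries held RNA of other splenic cells in unequal amounts. All 10 macrophage and monocyte markers were lower in KO libraries, 6 of them past the threshold, with a summed level from 1385 to 2520 CPM in KO and from 2589 to 6709 CPM in WT libraries. B cell (8 of 8), neutrophil (7 of 7), dendritic cell (8 of 8), T cell (5 of 7) and erythroid (6 of 7) markers were also mostly lower, with 0, 3, 2, 0 and 6 past the threshold in that direction, while 3 of 7 markers of type 1 innate lymphoid cells were lower and 0 were called by edgeR. The 1 T cell marker called, Cd3g, was higher in KO (log2 fold change 0.59, adjusted p = 0.0452, edgeR). No listed marker that was tested was at 0 in all libraries. The 12 pan-NK markers were all higher in KO libraries, 7 of them past the threshold, with sums from 8082 to 10020 CPM against 4452 to 7539 CPM, the latter in WT replicate 2. In bulk RNA, fewer cells of a type and less RNA per cell cannot be told apart. In NK92MI, 3 of 10 T cell, B cell and myeloid markers passed the filter: CD3E, the highest, was not called (log2 fold change 0.16, adjusted p = 0.0602, edgeR), CD79A and CSF1R were called higher with BIX at levels of at most 4.57 CPM, and MS4A1, CD4 and CD14 were each at or under 0.548 CPM in every library.

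The promoters of TGFB1 and TGFBR2 are shown because both human genes fell with BIX, and because SMAD complexes bind short CAGAC boxes. Each sequence is the 250 bases before the RefSeq transcription start on GRCh38.p14, 5′ to 3′ on the strand of the gene, and any CAGAC (or its complement GTCTG) would be in capitals. They lie at chr19:41353923-41354172 on the minus strand for TGFB1 and at chr3:30606351-30606600 on the plus strand for TGFBR2.
TGFB1: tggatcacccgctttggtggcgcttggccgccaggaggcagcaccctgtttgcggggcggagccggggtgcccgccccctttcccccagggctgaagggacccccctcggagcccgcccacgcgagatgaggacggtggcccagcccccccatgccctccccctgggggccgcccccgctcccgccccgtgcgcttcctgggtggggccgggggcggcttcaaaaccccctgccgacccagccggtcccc
TGFBR2: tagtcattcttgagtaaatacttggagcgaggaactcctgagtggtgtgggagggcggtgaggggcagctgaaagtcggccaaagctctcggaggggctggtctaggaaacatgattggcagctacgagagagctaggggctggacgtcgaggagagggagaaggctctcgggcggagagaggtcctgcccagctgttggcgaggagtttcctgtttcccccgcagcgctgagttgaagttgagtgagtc
Both stretches held 0 boxes, and so did the 250 bases before the start of SMAD3, which rose. Those of TGFBR1 and SMAD7, which also rose, held 1 and 2. The 2 of SMAD7 began 217 and 128 bases before the start. In windows of 300 bases (250 before to 50 after the start), 45% of 27305 RefSeq promoters held at least 1 CAGAC on either strand and 13% held 2 or more, so the box is common. A match or its absence describes these letters only. The 300-base windows of TGFBR1 and SMAD3 each held 1, and that of SMAD3 was not within the 250 bases before the start. The palindrome GTCTAGAC was in 0.201% of the windows and in none of these 5.

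In KO NK cells, the ligand gene was lower, the groups overlapped for both receptor genes, and Smad3 had the largest difference of the 5 without passing the threshold. By the test, 1 of the 5 mouse genes was called (Tgfb1, lower), where 11.9% of the 13189 genes tested were called (4.44% higher and 7.43% lower). By DESeq2, Tgfb1 and Smad3 were called, where 22.2% of genes were. In NK92MI cells, all 5 genes were called, where 36.9% of the 12727 genes tested were: SMAD7, SMAD3 and TGFBR1 rose with BIX, and TGFBR2 and TGFB1 fell. For all 5 the groups did not overlap, as for 47.9% of the genes tested. The tests differed in how well they found small changes. In simulated libraries, edgeR recovered 5 of 100 mouse genes and 77 of 100 NK92MI genes changed by 0.5 on the log2 scale. A mouse gene that was not called can therefore have changed by that much.

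**Figure D1:**
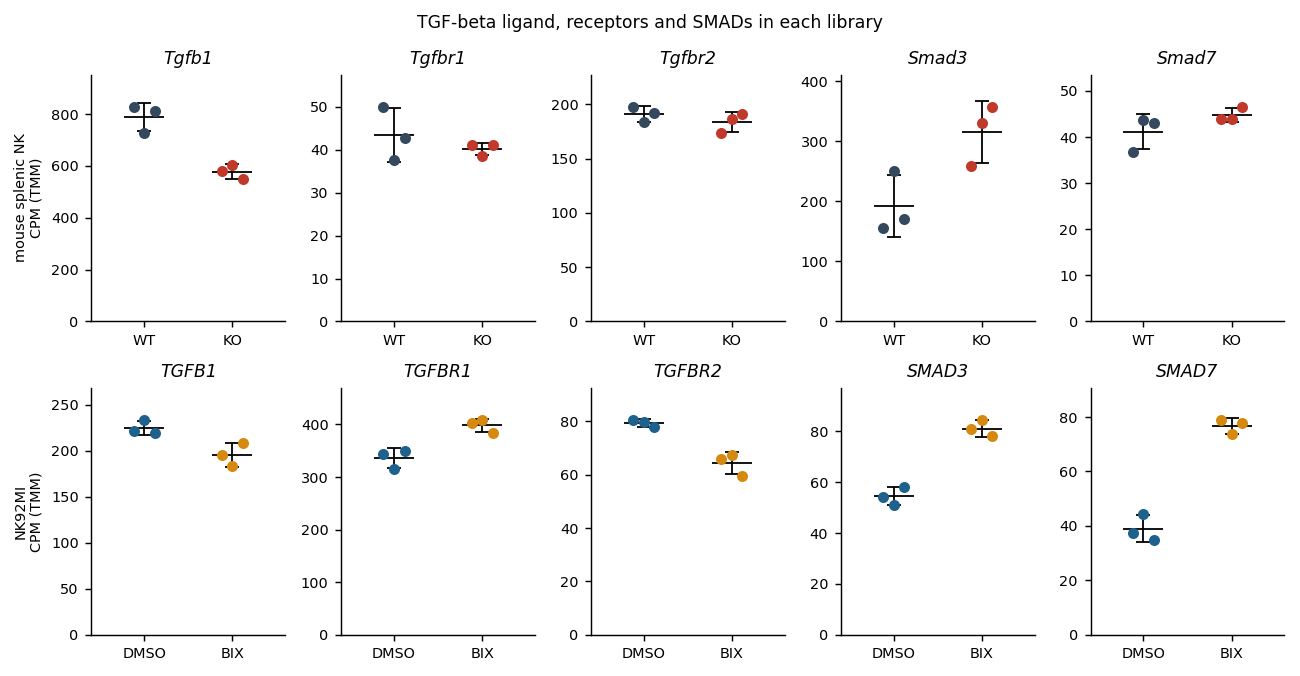
CPM (TMM) of the 5 genes in each library of mouse splenic NK cells (top, WT and KO) and NK92MI cells (bottom, DMSO and BIX). Points are libraries, horizontal lines the mean and bars the SD of 3. In the bottom row no group overlaps the other, with SMAD7 between 34.9 and 44.6 CPM under DMSO and between 73.6 and 78.9 CPM under BIX.

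Tgfb1 encodes the ligand (chromosome 7 of GRCm38, 25687002 to 25705077, plus strand) and was counted at 581, 604 and 548 CPM in KO replicates 1 to 3 and at 829, 726 and 812 CPM in WT replicates 1 to 3. Every KO library lay below every WT library, and the lowest WT value was that of replicate 2. The log2 fold change was −0.45 (SE 0.10, adjusted p = 0.0380, edgeR), a reduction to 0.733 of the WT level. Leaving out 1 library at a time kept it between −0.50 and −0.41, but the adjusted p by edgeR rose to between 0.104 and 0.143 without KO replicate 2, KO replicate 3, WT replicate 1 or WT replicate 3. Macrophages, platelets and other leukocytes also make Tgfb1. The summed macrophage and monocyte markers were lowest among WT libraries in replicate 2 (2589 CPM, against 6709 and 4993 CPM), as Tgfb1 was, but among KO libraries the sum was lowest in replicate 2 (1385 CPM), where Tgfb1 was highest. The 6 platelet and megakaryocyte markers were all lower in KO (1371 to 1518 CPM in KO, 1725 to 2744 CPM in WT), with the lowest WT sum in replicate 1, where Tgfb1 was highest. Their part in the difference in Tgfb1 was not tested.

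In NK92MI cells, TGFB1 (chromosome 19 of GRCh38, 41301587 to 41353922, minus strand) was counted at 195, 183 and 209 CPM in BIX replicates 1 to 3 and at 221, 233 and 219 CPM in the 3 DMSO libraries, whose columns carry no link to the numbered samples and are called a, b and c here. The groups did not overlap, and BIX replicate 3 came closest to the DMSO libraries. The log2 fold change was −0.20 (SE 0.07, adjusted p = 0.0288, edgeR). Without BIX replicate 1, BIX replicate 2, or DMSO library a, b or c, the adjusted p by edgeR was between 0.0628 and 0.111. The exons of TGFB1 share 215 bases, 6.59% of their length, with HNRNPUL1 on the opposite strand, and the strand setting of the counting is not given in the sources used here.

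Tgfbr1, the type I receptor kinase (chromosome 4, 47353222 to 47414931, plus strand), was counted at 41.1, 38.6 and 41.1 CPM in KO and at 50.04, 37.6 and 42.7 CPM in WT replicates. The KO values lay inside the WT range. The log2 fold change was −0.11 (SE 0.12, adjusted p = 0.518, edgeR), and without WT replicate 1, the highest library, it was 0.0033 (adjusted p = 0.989, edgeR).

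Tgfbr2, the type II receptor that binds the ligand (chromosome 9, 116084293 to 116175360, minus strand), was counted at 174, 187 and 192 CPM in KO and at 198, 184 and 192 CPM in WT replicates. KO replicate 1 was below all WT libraries, and the other KO libraries lay within the WT range, with a log2 difference of −0.06 (SE 0.08, adjusted p = 0.633, edgeR).

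In NK92MI cells the receptors moved in opposite directions. TGFBR1 (chromosome 9 of GRCh38, 99104038 to 99154192, plus strand) was counted at 402, 408 and 384 CPM with BIX and at 345, 315 and 349 CPM with DMSO. All BIX libraries were above all DMSO libraries, and the log2 fold change was 0.24 (SE 0.06, adjusted p = 0.00800, edgeR). TGFBR2 (chromosome 3, 30606601 to 30694142, plus strand) was counted at 66.1, 67.4 and 59.7 CPM with BIX and at 80.5, 79.9 and 77.7 CPM with DMSO. Here all BIX libraries were below all DMSO libraries, and the log2 fold change was −0.30 (SE 0.07, adjusted p = 0.00425, edgeR). Both calls held with each library left out in turn. The direction for TGFBR1 turned in 1 of 13 other settings, the scaling to the 12 human pan-NK markers. Of these markers, 6 were themselves called higher and 3 lower with BIX. Their summed level was 6117 to 7786 CPM with BIX and 5489 to 6038 CPM with DMSO. Scaling to them shifted the median of all genes from −0.01 to −0.28. TGFBR1 then stood at −0.030 (adjusted p = 0.872, edgeR), 0.26 above that median.

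The ratio of the receptors within a library does not depend on the scaling. Per kilobase of exon, TGFBR1 was counted at 5.22, 5.197 and 5.51 times TGFBR2 with BIX and at 3.67, 3.38 and 3.85 times with DMSO. The ratio was 1.46-fold higher with BIX, and the groups did not overlap (p = 0.1 in a two-sided exact permutation test, which cannot go lower with 3 libraries a group). In mouse the same ratio was 0.296, 0.259 and 0.269 in KO and 0.317, 0.256 and 0.278 in WT, with overlapping groups (exact permutation p = 0.7). The ratios were chosen after the values of the genes had been seen.

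**Figure D2:**
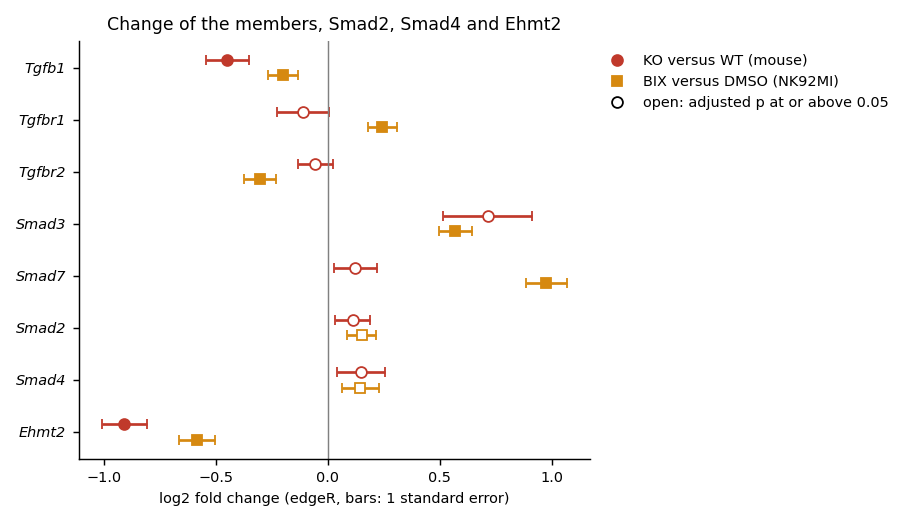
Log2 fold changes (edgeR) of the 5 genes, of Smad2 and Smad4 and of the targeted gene Ehmt2, in KO against WT mouse NK cells (circles) and in BIX against DMSO NK92MI cells (squares), with bars of 1 standard error. Filled symbols have an adjusted p under 0.05. Smad7 shows the widest gap between the experiments, at 0.12 and 0.98.

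Smad3, the receptor-activated SMAD that binds DNA directly (chromosome 9, 63646767 to 63757994, minus strand), was counted at 259, 330 and 358 CPM in KO and at 155, 251 and 171 CPM in WT replicates. All KO values were above all WT values, and KO replicate 1 and WT replicate 2 came closest to each other. The log2 fold change was 0.71 (SE 0.20, adjusted p = 0.0551, edgeR), a difference that did not pass the threshold. The same difference had an adjusted p of 0.00365 by DESeq2 and of 0.00504 by edgeR without WT replicate 2, when it was 0.96 and 26.3% of all genes were called. Among WT libraries, replicate 2 was also highest in the pan-NK markers (7539 CPM, against 4452 and 4557 CPM), and their part in the Smad3 difference was not tested. Scaled to the 12 mouse pan-NK markers, a setting under which 61.3% of genes and 4 of the 5 genes were called, all lower, Smad3 stood at −0.064 (adjusted p = 0.818, edgeR), and the median of all genes moved from 0.01 to −0.82. Relative to that median, Smad3 was 0.75 higher.

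SMAD3 in NK92MI cells (chromosome 15 of GRCh38, 67063763 to 67195173, plus strand) was counted at 80.7, 84.4 and 78.0 CPM with BIX and at 54.3, 51.2 and 58.3 CPM with DMSO. The groups were far apart compared with their spread, and the log2 fold change was 0.57 (SE 0.07, adjusted p = 5.16e-05, edgeR). It stayed between 0.52 and 0.62 with each library left out, and was 0.30 (adjusted p = 0.102) with pan-NK scaling. Exons of a long non-coding RNA on the opposite strand share 182 bases (1.82%) with SMAD3.

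The fellow mediators Smad2 and Smad4 were not called in either experiment. Smad2 reached 56.2 ± 1.59 CPM in KO libraries, against 52.1 ± 2.15 CPM in WT libraries (SD, n = 3; log2 fold change 0.11, adjusted p = 0.335, edgeR), and SMAD2 at 118 ± 5.56 CPM with BIX and 107 ± 1.70 CPM with DMSO (SD, n = 3; 0.15, adjusted p = 0.0762). Smad4, the common partner, had log2 fold changes of 0.15 (adjusted p = 0.352, edgeR) in mouse and 0.15 (adjusted p = 0.192) in NK92MI cells. Per kilobase of exon, SMAD3 was counted at 2.46, 2.49 and 2.53 times SMAD2 with BIX and at 1.84, 1.78 and 1.97 times with DMSO. In CPM, SMAD3 was below SMAD2 in every NK92MI library, so a ratio above 1 there rests on the exon lengths. The union of annotated exons was 36.4 kb for human SMAD2 and 8.78 kb for mouse Smad2, and the ratios cannot be compared between species. The difference between BIX and DMSO does not depend on these lengths. In mouse the ratio of Smad3 to Smad2 was 7.07, 9.55 and 10.1 in KO and 4.89, 7.32 and 5.25 in WT, with KO replicate 1 below WT replicate 2.

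Smad7, the inhibitory SMAD that targets the type I receptor (chromosome 18, 75367529 to 75395935, plus strand), was counted at 43.9, 43.96 and 46.6 CPM in KO and at 36.8, 43.7 and 43.0 CPM in WT replicates. KO replicates 1 and 2 were barely above WT replicate 2, and groups did not overlap for 38.5% of the genes tested in mouse. The log2 fold change was 0.12 (SE 0.10, adjusted p = 0.383, edgeR). With pan-NK scaling it was −0.69 (adjusted p = 0.0452, edgeR), 0.12 above the median of all genes.

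SMAD7 in NK92MI cells (chromosome 18 of GRCh38, 48919853 to 48950965, minus strand) was counted at 78.9, 73.6 and 77.7 CPM with BIX and at 37.5, 44.6 and 34.9 CPM with DMSO. Its BIX level was 1.97 times its DMSO level. The log2 fold change of 0.98 (SE 0.09, adjusted p = 2.70e-06, edgeR) was the largest of the 5 genes, and it was called under each of the 13 other settings tried, between 0.70 and 1.08. Of the 5 human genes, SMAD7 and SMAD3 also passed the thresholds of the study (adjusted p under 0.01 and an absolute log2 fold change over 0.5), where 11.7% of genes did. Of the mouse genes 0 of 5 passed them, as did 0 of all genes by edgeR. At an unadjusted p under 0.05, 2080 mouse genes were higher and 2639 lower, and DESeq2 called 10.7% of mouse and 10.9% of human genes by these thresholds, including 1 of the 5 (Smad3) in mouse and the same 2 of 5 in NK92MI.

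Because the inhibitor and the mediator both rose in NK92MI, their ratio within each library was also taken, per kilobase of exon. SMAD7 was counted at 2.48, 2.21 and 2.53 times SMAD3 with BIX and at 1.75, 2.21 and 1.52 times with DMSO. BIX replicate 2 and DMSO library b were nearly equal, although the groups did not overlap (exact permutation p = 0.1). In mouse the ratio of Smad7 to Smad3 was 0.208, 0.163 and 0.160 in KO and 0.291, 0.213 and 0.309 in WT. It was lower in every KO library (0.657-fold, exact permutation p = 0.1), although KO replicate 1 and WT replicate 2 were nearly equal. In these libraries the ratio was higher with BIX and lower in KO, both at the lowest p that this test can give. The difference between the 2 experiments in this ratio was not tested.

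The difference between the KO effect and the BIX effect was tested as an interaction over all 12 libraries and 10387 genes with matching symbols, of which 25.8% were called. Of the 5 genes, 1 passed: the effect on SMAD7 was 0.85 lower in KO than with BIX on the log2 scale (SE 0.14, adjusted p = 0.000938, edgeR). For TGFBR1, which had values of −0.11 in KO and 0.24 with BIX, the difference was −0.36 (adjusted p = 0.0583). TGFBR2 and TGFB1 differed by 0.25 (adjusted p = 0.0808) and −0.25 (adjusted p = 0.124). For SMAD3, with 0.71 in KO and 0.57 with BIX, the difference was 0.15 (SE 0.22, adjusted p = 0.671). The experiments differ in species, in cell and in the kind of perturbation, and these cannot be told apart.

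**Figure D3:**
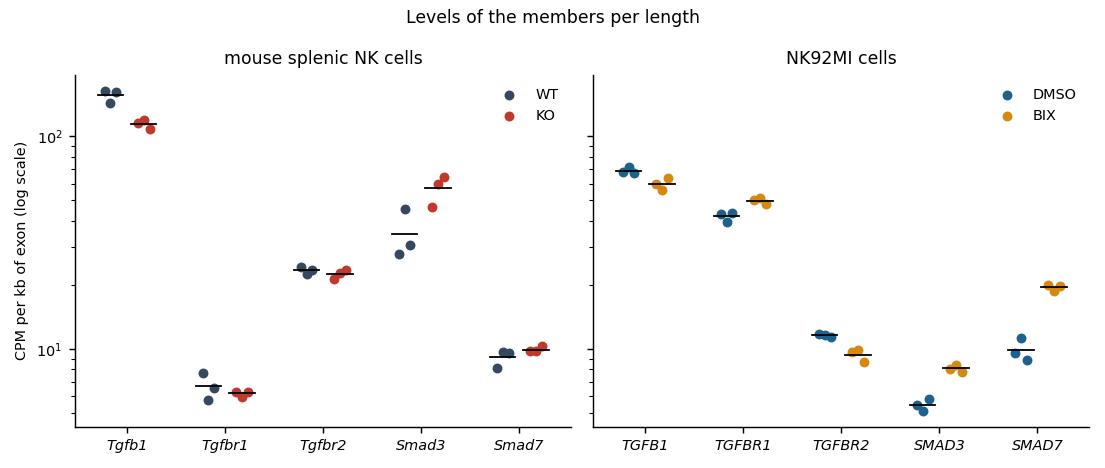
CPM per kilobase of exon (log scale) of the 5 genes in each library of mouse NK cells and of NK92MI cells. Points are libraries and lines the group means. TGFB1 is the highest in all 4 groups, while Tgfbr1 is the lowest in mouse (6.16 in KO and 6.65 in WT) and TGFBR1 the second highest in NK92MI (49.8 with BIX and 42.1 with DMSO).

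The order of the levels per kilobase of exon was the same in KO and WT NK cells. Tgfb1 was first with 115 ± 5.60 CPM per kb in KO and 156 ± 10.9 in WT (SD, n = 3), followed by Smad3 with 57.0 ± 9.23 and 34.7 ± 9.32. Tgfbr2 stood at 22.5 ± 1.12 and 23.4 ± 0.876, Smad7 at 9.92 ± 0.335 and 9.10 ± 0.845, and Tgfbr1 was last with 6.16 ± 0.219 and 6.65 ± 0.958. In NK92MI cells, TGFB1 was again first with 59.9 ± 3.94 CPM per kb with BIX and 68.8 ± 2.34 with DMSO, and TGFBR1 was second with 49.8 ± 1.5996 and 42.1 ± 2.35. The order below them differed between the treatments: with DMSO, TGFBR2 (11.6 ± 0.213) preceded SMAD7 (9.88 ± 1.27), and with BIX, SMAD7 (19.4 ± 0.705) preceded TGFBR2 (9.40 ± 0.600). SMAD3 was last in both, at 8.10 ± 0.322 with BIX and 5.45 ± 0.357 with DMSO. In none of the 4 groups did the ranges of neighbouring genes overlap. Lengths are the union of annotated exons and not of the transcripts used in these cells.

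The genes nearest in pattern to each of the 5, by the root mean square (RMS) difference of mean-centred log2 CPM over the 6 libraries of a species, are given as a description. Smad3 was closest to Pogk (RMS difference 0.03) and Il18rap (0.05), which encodes a chain of the IL-18 receptor, against a spread of 0.45 of Smad3 itself. Tgfb1 was closest to Epn1 (0.04) and to Srebf2 (0.04), a transcription factor of cholesterol synthesis. Tgfbr1 was closest to Psmg2 and Nipa2, Tgfbr2 to Eif3b and Keap1, and Smad7 to Aste1 and Lin52. In NK92MI, SMAD7 was closest to FGGY (0.05) and RPS18P9 (0.06), SMAD3 to FRG1HP (0.03) and VEZF1 (0.03), TGFBR1 to GNA13 (0.01) and DCUN1D1 (0.02), TGFBR2 to SLCO4A1 (0.02) and RGP1 (0.02), and TGFB1 to CALM3 (0.01) and SRF (0.02). RPS18P9 and FRG1HP are pseudogenes, whose counts can share reads with their parent genes.

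Another 80 genes of the pathway, in 7 lists by role, were read from the same fits. In mouse, 69 were tested and 6 were called (8.7%, beside 11.9% of all genes), 1 higher and 5 lower, with a median log2 fold change of −0.08. Ltbp4, whose symbol occurs more than once in the mouse table, was left out. In NK92MI, 52 were tested and 26 were called (50%, beside 36.9% of all genes), 21 higher and 5 lower, with a median of 0.15. For all genes the median was 0.01 in mouse and −0.01 in NK92MI, and 18.4% of all NK92MI genes were called higher and 18.4% lower.

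**Figure D4:**
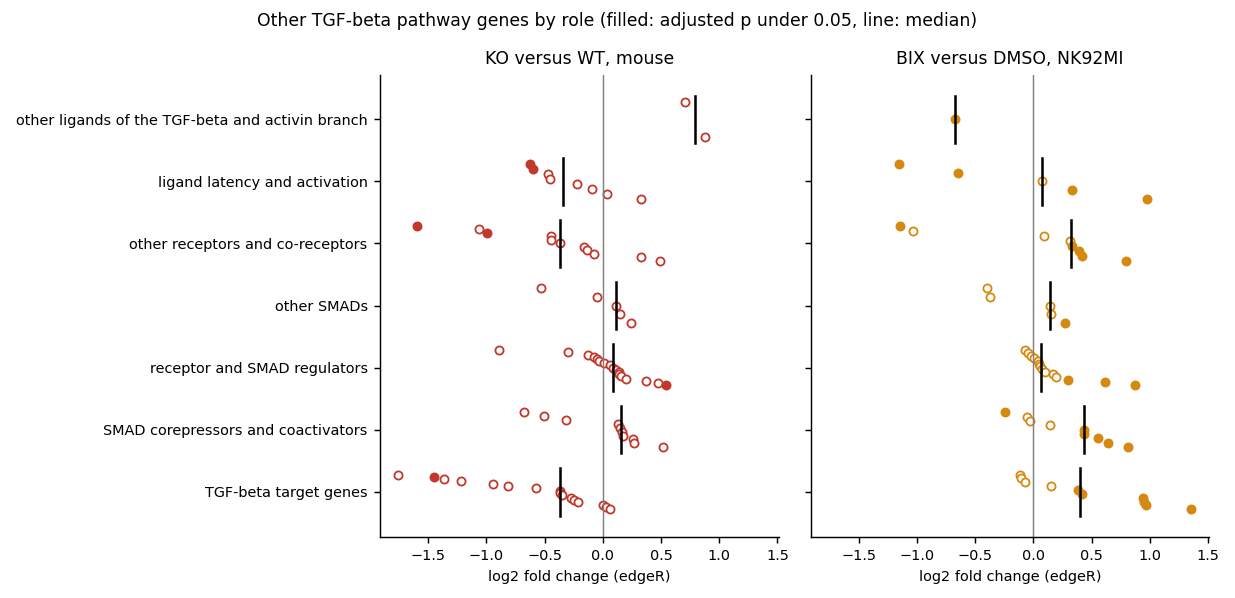
Log2 fold changes (edgeR) of the other pathway genes by role, in KO against WT mouse NK cells (left, 69 genes) and BIX against DMSO NK92MI cells (right, 52 genes). Filled points have an adjusted p under 0.05 and black lines are medians of the lists. Among corepressors and targets of NK92MI most filled points are to the right of 0.

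Of the corepressors and coactivators that bind SMADs and set their output, 5 of 9 tested rose with BIX and 1 fell (E2F4, with overlapping groups and a call lost in 7 of 13 other settings). The calls were 66.7% of the list, beside 36.9% of all genes. RUNX3, a transcription factor that works with SMADs in lymphocytes, was at 386 ± 6.95 CPM with BIX and 247 ± 7.52 CPM with DMSO (SD, n = 3; log2 fold change 0.64, adjusted p = 2.82e-06, edgeR). SKIL (SnoN) rose by 0.81 (adjusted p = 1.69e-05) and SKI by 0.44 (adjusted p = 1.45e-04), and TGIF2, a homeobox corepressor, by 0.55 (adjusted p = 1.77e-04). In mouse 0 of 10 were called by edgeR, beside 11.9% of all genes. The mouse log2 values of the same 4 genes were 0.52, 0.26, 0.27 and −0.51, with adjusted p between 0.0729 and 0.179.

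Of the genes commonly used as TGF-beta targets, 6 of 10 tested rose with BIX and 0 fell (60% called, beside 36.9% of all genes). KLF10, a zinc finger factor induced early by TGF-beta, was at 72.4 ± 5.49 CPM with BIX and 37.7 ± 1.596 CPM with DMSO (SD, n = 3; log2 fold change 0.94, adjusted p = 1.39e-06, edgeR). JUNB, an AP-1 subunit, was at 96.1, 71.7 and 107.6 CPM with BIX and at 35.4, 38.1 and 34.3 CPM with DMSO, a difference of 1.35 (adjusted p = 2.04e-06). GADD45B rose by 0.95 (adjusted p = 2.64e-05) and ITGA1, the integrin chain CD49a, by 0.42 (adjusted p = 5.10e-04). ITGAE, an integrin chain of tissue-resident lymphocytes, was also called (0.39, adjusted p = 0.00814). These genes also respond to other signals, so their counts are not a measure of SMAD activity. In mouse 16 were tested, the median was −0.37, and 1 was called (6.25%, beside 11.9% of all genes). Tgfbi, an extracellular matrix protein, fell by 1.45 on the log2 scale (adjusted p = 0.0360, edgeR).

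Of the other receptors, 4 rose and 1 fell among 8 tested in NK92MI (62.5% called, beside 36.9% of all genes). ACVR1, a type I receptor of the activin and BMP branch, rose by 0.80 (adjusted p = 3.77e-05, edgeR), BMPR1A by 0.42 (adjusted p = 7.82e-04), and the co-receptor TGFBR3 (betaglycan) by 0.39 (adjusted p = 0.00340). BMPR2 was also called. ENG (endoglin), a co-receptor, was low in both groups, at 1.37 ± 0.176 CPM with BIX and 3.04 ± 0.861 CPM with DMSO (SD, n = 3; −1.15, adjusted p = 0.00552). In mouse 2 of 11 were called (18.2%, beside 11.9% of all genes), both lower: Eng at a log2 fold change of −0.99 (adjusted p = 0.0279) and Acvrl1, a type I receptor best known from endothelium, at −1.599 (adjusted p = 0.0453). Eng was the 1 gene of these 80 called in both experiments.

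Among regulators of receptors and SMADs, 3 of 14 were called in NK92MI, a lower share (21.4%) than that of all genes (36.9%). All 3 were higher: TOB1 by 0.87 (adjusted p = 7.42e-06, edgeR), LDLRAD4, which limits SMAD phosphorylation, by 0.61 (adjusted p = 0.00289), and the SMAD phosphatase PPM1A by 0.29 (adjusted p = 0.00221). In mouse 1 of 17 was called (5.88%, beside 11.9% of all genes), the deubiquitinase Usp11, at 57.1, 63.0 and 65.0 CPM in KO and 41.2, 44.4 and 41.3 CPM in WT (log2 fold change 0.54, adjusted p = 0.0269). With pan-NK scaling Usp11 stood at −0.28 (adjusted p = 0.367, edgeR). Of the other SMADs, 1 of 5 was called in NK92MI (20%, beside 36.9% of all genes), SMAD5 of the BMP branch (0.27, adjusted p = 0.0323). In mouse 0 of 5 were called by edgeR, beside 11.9% of all genes. The SMAD5 call was lost in 5 of 13 other settings, with adjusted p up to 0.121 with 1 library left out and a value of 0.0045 (adjusted p = 0.985) with pan-NK scaling.

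Genes that hold and release the latent ligand were called in both directions in NK92MI, 2 higher and 2 lower of 5 tested (80%, beside 36.9% of all genes). NRROS, which anchors latent TGF-beta on the cell surface, was at 18.8, 18.9 and 20.4 CPM with BIX and at 44.2, 43.2 and 42.0 CPM with DMSO. Its log2 fold change was −1.15 (adjusted p = 4.38e-07, edgeR). FURIN, the protease that cleaves the precursor, rose by 0.33 (adjusted p = 0.00152), while LTBP3 fell by 0.65 (adjusted p = 0.0179), and LTBP2, at 1.43 CPM with BIX, was 0.98 higher (adjusted p = 0.0458). The LTBP2 call was lost in 9 of 13 other settings (adjusted p up to 0.189) and that of LTBP3 in 3 of 13 (up to 0.0792). In mouse 2 of 8 were called (25%, beside 11.9% of all genes), both lower: Thbs1 (thrombospondin, an activator of latent TGF-beta) at −0.60 (adjusted p = 0.0440) and Lrrc32 (GARP, an anchor of the latent form) at −0.63 (adjusted p = 0.0456). Of the further ligands, 1 was tested in NK92MI, GDF11, and it fell by 0.67 (adjusted p = 1.25e-04). In mouse Tgfb3 and Gdf11 were tested, with log2 values of 0.87 and 0.70 and adjusted p of 0.0539 and 0.0569.

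**Figure D5:**
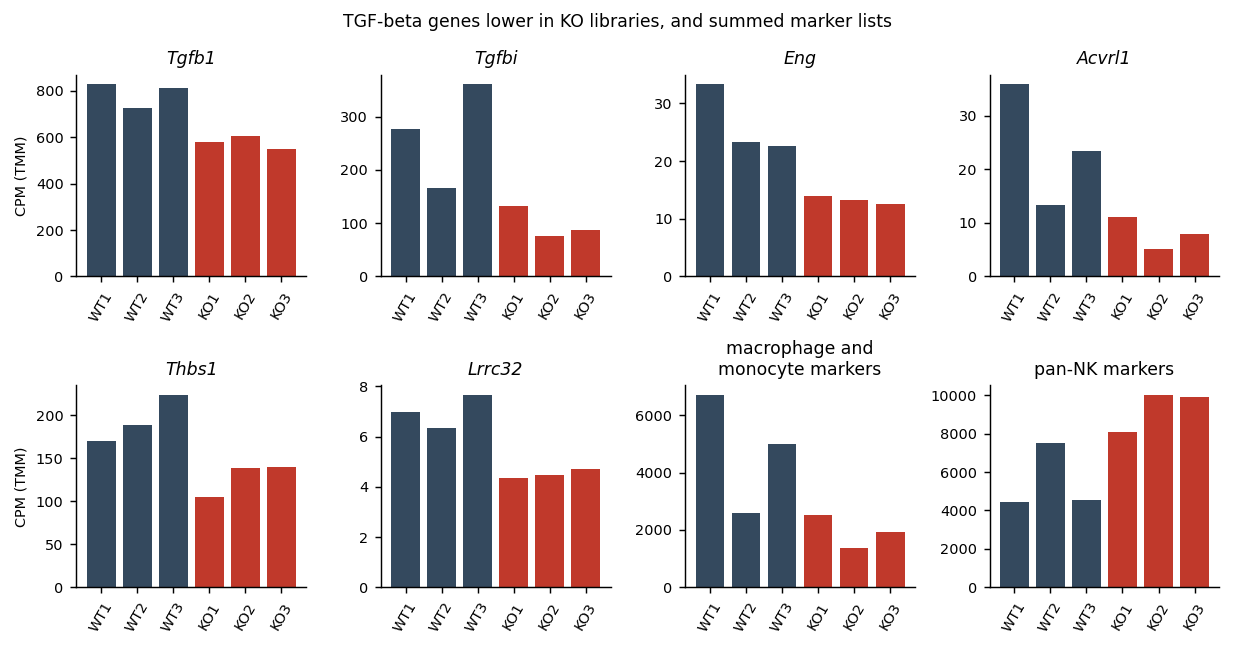
CPM (TMM) in each of the 6 mouse libraries for Tgfb1 and the 5 other pathway genes that were lower in KO, and the summed CPM of the macrophage and monocyte markers and of the pan-NK markers. Bars are single libraries. Tgfbi and Acvrl1 are lowest among WT libraries in replicate 2, which also has the lowest macrophage and monocyte sum (2589 CPM) and the highest pan-NK sum (7539 CPM).

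The mouse genes that were called lower followed the macrophage and monocyte sums to different degrees from library to library. Tgfbi was counted at 131, 75.5 and 87.3 CPM in KO and at 277, 167 and 361 CPM in WT replicates. Acvrl1 was counted at 11.1, 5.06 and 7.84 CPM in KO and at 35.9, 13.4 and 23.4 CPM in WT. For both genes, KO replicate 1 was the highest KO library and WT replicate 2 the lowest WT library, as in the macrophage and monocyte sums (2520 CPM in KO replicate 1 and 2589 CPM in WT replicate 2). Eng was at 14.0, 13.3 and 12.6 CPM in KO and at 33.3, 23.3 and 22.6 CPM in WT, Thbs1 at 105, 139 and 140.3 CPM and at 171, 189 and 224 CPM, and Lrrc32 at 4.35, 4.47 and 4.72 CPM and at 6.96, 6.32 and 7.66 CPM. Thbs1 and Lrrc32 were lowest among KO libraries in replicate 1, where the macrophage and monocyte sum was highest, and Thbs1 was lowest among WT libraries in replicate 1. The platelet and megakaryocyte sum was 1725, 1998 and 2744 CPM in WT replicates 1 to 3, the same order as Thbs1 but not as Lrrc32. In KO replicates 1 to 3 it was 1518, 1448 and 1371 CPM, the reverse of the order of Thbs1 and Lrrc32. Each of these 5 genes lost its call in 3 to 5 of 14 other settings, with adjusted p by edgeR up to 0.131 for Eng and 0.160 for Lrrc32. The part of macrophages, platelets or other cells in these differences was not tested.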

How the data were processed

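RNA was extracted with Trizol from NK cells sorted from spleens of WT and KO mice and from NK92MI cells given BIX or DMSO (3 libraries per group). The authors trimmed reads with fastp 0.23.4, aligned them with STAR 2.7.11b to GRCm38 or GRCh38, allowing 2 mismatches, and counted them with HTSeq 2.0.3; the values are raw counts per gene symbol, as deposited by the authors without normalization. The annotation release and strand setting are not given in the sources used here. The numbered columns of the human controls are tied by no label to the numbered DMSO samples, and entered as 1 group.

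R 4.3.3 was used with edgeR 4.0.16 (TMM, filterByExpr, quasi-likelihood test, no covariate), and with DESeq2 1.42.0 and limma 3.58.1 as alternatives. The procedures were tested on simulated data. Of 100 genes changed by 0.5 on the log2 scale, edgeR recovered 5 in simulated mouse and 77 in simulated NK92MI libraries. Of 100 genes changed by 1, it recovered 83 and 100. The threshold for a call was an adjusted p of 0.05, whatever the fold. Patterns of nearest genes were compared on log2 CPM (prior count 2). Positions and exon lengths are from GENCODE M21 and GENCODE 44, which are not shown to be the releases of the authors, and promoters from RefSeq, where all 5 human symbols matched. Intervals of counting error were not used, since the lowest count of the 5 genes in a library was 589. Some named pathway genes had far fewer counts, such as ENG with 20 to 68 in the NK92MI libraries.

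The 5 genes, the lists of pathway genes and markers and the rule for naming genes were chosen with earlier results of these data known. Named are the 5 genes, Smad2, Smad4, Ehmt2, the pathway genes called (values for at most 4 per list and comparison, by smallest adjusted p, where any further were named after their values were seen), and 2 nearest genes for each of the 5. Tgfb3 and Gdf11 in mouse, and mouse values of genes called in NK92MI, were also named after their values were seen. Replicates were compared pairwise, and no pair agreed within sampling noise. Same-numbered KO and WT libraries did not all deviate together (correlations of 0.28, 0.35 and −0.19), so the numbers were not taken as pairs. Alternatives were other scalings, filters, tests and thresholds, the replicate block, and each library left out in turn. The H3K9me2 data were not analysed here, and some genes of the lists are counted but not reported by name.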

Additional observations from a re-analysis of the deposited data

Results flagged for a closer look

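The effect on SMAD7 differed between the experiments. KO minus WT was 0.12 and BIX minus DMSO 0.98 on the log2 scale, and the difference of −0.85 (SE 0.14) had an adjusted p of 0.000938 in edgeR's interaction test over all 12 libraries, where 25.8% of the 10387 genes tested were called. It stayed between −0.96 and −0.78 under the 16 other settings tried, with adjusted p between 0.000632 and 0.00442. All 3 KO libraries were above all 3 WT libraries and all 3 BIX libraries above all 3 DMSO libraries under TMM scaling. In mouse this was by a small margin (43.9 CPM in KO replicate 1, 43.7 CPM in WT replicate 2). Groups did not overlap for 38.5% of mouse and 47.9% of NK92MI genes tested. The KO difference itself was not called (adjusted p = 0.383, edgeR). With pan-NK scaling, Smad7 was called lower in KO (−0.69, adjusted p = 0.0452, edgeR) and SMAD7 higher with BIX (0.70, adjusted p = 0.00108, edgeR). Under that scaling 61.3% of mouse genes and 38.5% of NK92MI genes were called, and the median of all genes was −0.82 and −0.28. Relative to these medians, Smad7 was 0.12 higher in KO and SMAD7 0.99 higher with BIX. The interaction was not refitted under pan-NK scaling. Species, cell and kind of perturbation cannot be told apart in it.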

How the results depend on the processing

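The log2 changes of the 5 genes and of the named pathway genes (53 values in all) were refitted 718 times under other settings: 625 refits kept direction and side of the threshold, 73 lost the call, 11 gained one and 9 turned the direction. Scaling to the pan-NK markers turned Smad3 (−0.064), Smad7 (−0.69), Usp11 (−0.28), Smad2 (−0.71) and Smad4 (−0.66) in mouse, and TGFBR1 (−0.030), SMAD2 (−0.12) and SMAD4 (−0.13) in NK92MI; it lowered the median of all genes by its construction, and the share of calls that were higher went from 37.4% to 0.408% in mouse and from 50.04% to 11.1% in NK92MI. With 1 library left out, Tgfbr1 lay between −0.20 (without WT replicate 2) and 0.0033 (without WT replicate 1).

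For the 5 mouse genes, 1 call became 4 with pan-NK scaling, 2 without a filter, with DESeq2 or with the replicate block, and 0 at the thresholds of the study, and it lay between 0 and 2 with 1 library left out. For the other mouse pathway genes, 6 calls (1 higher, 5 lower) became 50 (0 higher, 50 lower) with pan-NK scaling, 13 (4 higher, 9 lower) with DESeq2, 11 (5 higher) with the replicate block and 0 at the thresholds of the study (0 higher, 0 lower); calls higher were 3 without a filter, 2 with limma-voom and 3 with DESeq2 at the thresholds of the study, a setting chosen after seeing the data. With 1 library left out there were 0 to 16 calls (0 to 5 higher, 0 to 11 lower), 16 of them without WT replicate 2, 11 without KO replicate 1, 1 without WT replicate 1 and 0 without WT replicate 3, KO replicate 2 or KO replicate 3. Over all mouse genes, 585 higher and 980 lower calls became 33 and 8046 with pan-NK scaling, 1096 and 1996 with DESeq2, 1292 and 1930 with the replicate block, and 0 and 0 at the thresholds of the study, with 0 to 1433 higher and 0 to 2097 lower with 1 library left out. The replicate block is given as a setting only, since same-numbered libraries did not all correlate best with each other. No paired analysis was possible for NK92MI because no label ties the numbered control columns to the numbered DMSO samples.

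For the 5 human genes, 5 calls became 3 with pan-NK scaling and 2 at the thresholds of the study, by edgeR and by DESeq2, with 4 to 5 when 1 library was left out. For the other human pathway genes, 26 calls (21 higher, 5 lower) became 17 (8 higher, 9 lower) with pan-NK scaling, 13 (10 higher, 3 lower) at the thresholds of the study and 12 (9 higher, 3 lower) with DESeq2 at those thresholds, with 22 to 30 (19 to 25 higher, 3 to 5 lower) when 1 library was left out. Over all human genes, 2348 higher and 2344 lower calls became 542 and 4357, 794 and 691, and 793 and 654 under these same settings, with 1850 to 2581 higher and 1641 to 2440 lower when 1 library was left out. In the interaction test, 1 call lay between 1 and 3 with 1 library left out: 2 without KO replicate 1, where TGFBR2 was added, and 3 without WT replicate 2, where TGFB1 and TGFBR1 were. The share of all matched genes called in these refits is not given here, so the added calls cannot be set beside it. In the KO comparison alone, 26.3% of genes were called without WT replicate 2, against 11.9% with all libraries. Apart from these construction effects, the cause of the changes was not tested. With 3 libraries per group, the spread between libraries limits the precision. For named genes with few counts, such as ENG with BIX (23, 26 and 20 counts), counting error limits it as well.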
